A study of Mus musculus and Mus musculus
Oryx dammah with 30 samples.

Results

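The genes examined here are 37 mouse genes of DNA damage signalling and repair, chosen by name as a pathway, by a rule that uses no measured value. All 37 were found by gene symbol among the 53023 gene rows of the table for four-cell nuclear transfer (NT) embryos, the 53023 rows of the replication table and the 55364 rows of the two-cell table. In each experiment C2C12 cells, an immortalized myoblast line derived from C3H strain mice, were fused with embryos of C57BL/6 and DBA/2 parentage whose cell cycle was arrested by demecolcine, an inhibitor of microtubule assembly, at 0.1 µg/ml, and the NT embryos were cultured for 24 h in the same drug. The four-cell experiment held 3 libraries of NT embryos cultured with α-amanitin, which blocks RNA polymerase II, and 3 of untreated NT embryos, each from a pool of 3 embryos. The two-cell experiment held 6 libraries with and 6 without α-amanitin, each from a pool of 5 embryos, with nuclear transfer starting at 21 or at 30 h post insemination. The replication experiment held 3 libraries labelled D and 3 labelled DR, each from a pool of 4 untreated four-cell NT embryos. It asked whether DNA replication around the time of nuclear transfer matters, but the labels do not say which letter stands for which state, so differences are given as DR minus D with no direction relative to replication. Each library mixes RNA of the recipient embryo, stored oocyte RNA and RNA of the donor cells, and fewer nuclei of a kind and less RNA per nucleus cannot be told apart.

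Cells answer broken or stalled DNA with a relay of kinases. ATM and ATR sense double-strand breaks and exposed single-stranded DNA, pass the signal to the checkpoint kinases CHK2 and CHK1, and so hold the cell cycle while repair proceeds. Early cleavage embryos start with stored oocyte transcripts of many of these genes and later replace them by transcription from the embryonic genome, and α-amanitin stops that replacement. A transcript that is higher without α-amanitin is therefore commonly read as newly made, and one that is higher with it as retained.

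Values are FPKM, reads per gene scaled to gene length and to the depth of the library, as deposited. Differences are on the log2(FPKM + 1) scale, which understates the change of low genes, and were tested with limma across every gene that reached an FPKM of 1 in 3 or more libraries. A gene passed when its Benjamini-Hochberg adjusted p was under 0.05. Libraries held 1136771 to 3101002 reads in the four-cell experiment, 4712268 to 10503779 in the two-cell experiment, 2603946 to 4252278 for DR and 6059974 to 19181387 for D. The names of the two-cell columns form 2 sets, NT with Am and R with RAm, and do not say which set is the early and which the late transfer. The 3 RAm libraries stood apart: their log2 values correlated with those of the Am libraries at r = 0.64 to 0.70, while the Am libraries correlated with each other at 0.93 to 0.94, and 10242 to 10771 genes reached an FPKM of 1 in them against 13100 to 13499 in the Am libraries. The two-cell calls are therefore also given within each set. The summed FPKM of 12 myoblast markers was 4446 in the untreated library NT3, against 1576 in NT1 and 946.5 in NT2. Of the 37 members, 17 share exon bases with another gene in GENCODE M21, and the share is given beside the two-cell results of Apex1, Trp53bp1, Rnf8, Rad54l and Rad9a, whose exon lengths there equal those of the two-cell table. The four-cell table lists Rad9a with a shorter model, of 2046 bases against 2362, for which the share was not computed. The sources used here do not say that counting used strand.

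In four-cell NT embryos, 4 of the 31 members that passed the filter on low values were higher without α-amanitin, and none was lower. They were Rad1 and Rad9a, subunits of the 9-1-1 clamp that is loaded at damaged DNA, Rad52, a mediator of strand annealing in homologous recombination, and Msh6, a mismatch recognition factor. The 4 members are 12.9% of those tested, beside 11.1% of all 9884 genes tested. No member passed in the other direction, in which 1.13% of all genes did. The median log2 difference of the members was 0.34 and that of all genes 0.37. Leaving out the α-amanitin library S8 gave 0.15 and 0.32, and leaving out S16 gave 0.22 and 0.43. With the 4-fold criterion that the study added to the adjusted p, 3 members passed, Rad1, Rad9a and Msh6, beside 6.2% of all genes.

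Rad1 was at 1.44, 0.594 and 0.0851 FPKM in the 3 α-amanitin libraries and at 13.3, 10.6 and 9.62 FPKM in the 3 untreated ones. The lowest untreated library lay far above the highest treated one, and the mean of 11.2 ± 1.90 (SD, n = 3) was 15.8 times that of 0.706 ± 0.683 (SD, n = 3). The log2 difference was 2.90 ± 0.44 (SE), with an adjusted p of 0.00822. Msh6 was at 5.00, 5.38 and 0.0 FPKM with α-amanitin and at 36.1, 17.5 and 24.4 FPKM without it. All untreated libraries exceeded all treated ones, the untreated mean was 7.51 times the treated one, and the log2 difference was 2.94 ± 0.71 (SE, adjusted p = 0.0312). Rad9a was at 4.26, 0.430 and 1.23 FPKM with α-amanitin and at 13.5, 9.62 and 16.3 FPKM without it. Its groups did not overlap either, and its log2 difference was 2.44 ± 0.54 (SE, adjusted p = 0.0245). Rad52 was low in every library, at 0.953, 0.306 and 0.766 FPKM with α-amanitin and at 3.66, 2.85 and 5.15 FPKM without it. It rose by 1.54 ± 0.40 (SE, adjusted p = 0.0397) on 2 to 64 reads per library. No α-amanitin library of Rad52 reached an FPKM of 1, so it passed the filter on low values through the untreated libraries alone. With no filter its adjusted p was 0.143. The number of calls changed with single libraries, for members and for all genes. Of the members, 0 were higher without the untreated library S15, 0 without S7 and 1 without S17, beside 0.899%, 0.651% and 1.46% of all genes in the same fits. Without the α-amanitin library S18 there were 2, without S8 also 2 and without S16 all 4, beside 5.41%, 6.91% and 14.4% of all genes. The call of Rad1 was lost without S15 or S7, with an adjusted p of up to 0.0540, that of Msh6 without S15, S17 or S7, with up to 0.131, that of Rad9a on leaving out any library but S16, with up to 0.112, and that of Rad52 without S18 or S8, with up to 0.114. Without S15, S17 or S7, Rad52 did not reach the filter on low values and was not tested. It did not pass under median-of-ratios scaling (adjusted p = 0.0652). The list of 10 oocyte and early embryo markers summed to 12210 to 16110 FPKM with α-amanitin and 8731 to 9926 FPKM without it, and 12 myoblast markers summed to 183 to 2214 and 213 to 709 FPKM, with 1 and 4 of them at 0 in every library of the group. Of 6 cumulus cell markers, 5 were at 0 in all libraries of both groups. The part of these lists in the differences was not tested.

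**Figure D1:**
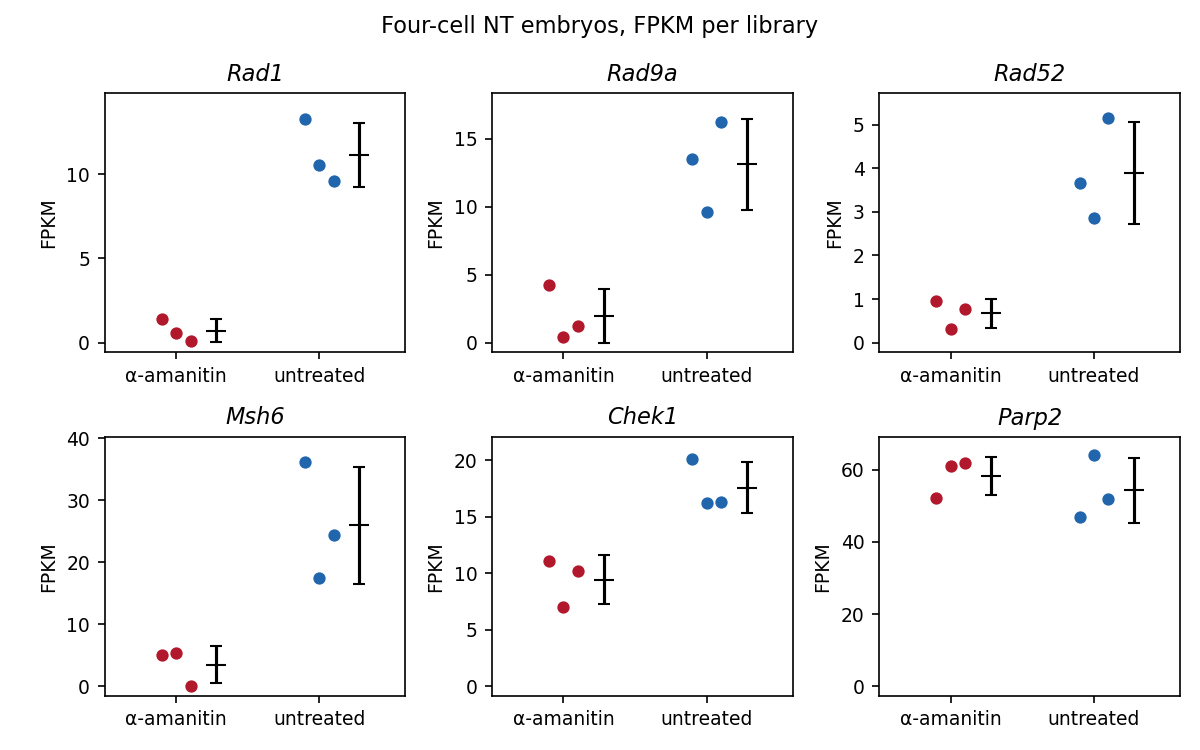
FPKM of 6 members in the 3 α-amanitin libraries (red) and the 3 untreated libraries (blue) of four-cell NT embryos, with the mean and SD beside the points. The untreated libraries lie above all treated ones for Rad1, Rad9a, Rad52, Msh6 and Chek1, while for Parp2 the groups overlap around means of 58.2 and 54.2 FPKM.

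The other members of the four-cell experiment are ordered by role. Among the kinases, Chek1, which encodes the kinase that answers stalled replication, was at 11.1, 7.02 and 10.2 FPKM with α-amanitin and at 20.2, 16.3 and 16.4 FPKM without it. Its groups did not overlap, but the difference of 0.85 ± 0.33 (SE) did not pass (adjusted p = 0.133). Atm, the apical kinase of double-strand breaks, lay at 5.42 to 6.74 FPKM with and 5.52 to 7.02 FPKM without α-amanitin, and Chek2 at 30.2 to 49.2 and 38.6 to 41.7 FPKM. For Atm and Chek2 the groups overlapped. In the 9-1-1 group the summed FPKM of the 4 genes was 3.15 to 18.2 with α-amanitin and 32.2 to 42.0 without it, and the clamp loader gene Rad17 and the clamp subunit gene Hus1 had differences of 1.15 and 0.84 that did not pass. All 3 genes of the MRN complex, which tethers and trims broken ends, had positive differences, of 0.25 for Rad50, 1.19 for Mre11a and 0.62 for Nbn, none past the threshold. Mre11a, the nuclease of the complex, was at 1.63, 0.445 and 0.956 FPKM with and 2.96, 2.40 and 5.62 FPKM without α-amanitin, so its groups did not overlap (adjusted p = 0.113).

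Rad18, the ubiquitin ligase that starts bypass of lesions behind the fork, was at 3.78, 4.40 and 2.17 FPKM with and 6.89, 11.3 and 9.17 FPKM without α-amanitin, a difference of 1.20 ± 0.41 (SE) that did not pass (adjusted p = 0.0908) although the groups did not overlap. Prkdc, the catalytic subunit of DNA-dependent protein kinase in end joining, went the other way, at 2.37, 4.54 and 2.63 FPKM with and 1.70, 1.70 and 1.16 FPKM without α-amanitin. Its difference of -0.70 ± 0.40 (SE) did not pass either (adjusted p = 0.283), and it was the one member whose groups did not overlap with the higher values under α-amanitin. In all, the groups did not overlap for 9 of 31 members, 29.0%, beside 35.2% of all genes. The remaining members of the break-site, recombination, end joining and Fanconi anaemia groups had differences between -0.91 for Xrcc5 and 0.67 for Xrcc6, and none passed.

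Of the base excision and single-strand break genes, Apex1 and Parp2 had the highest levels per length among the members, while Ung lay at 2.48 to 5.33 FPKM. Apex1, the main abasic site endonuclease, was at 68.5, 53.2 and 35.9 FPKM with and 62.4, 75.3 and 65.0 FPKM without α-amanitin, and Parp2, a sensor of strand breaks, at 52.1, 60.9 and 61.8 FPKM with and 46.8, 64.2 and 51.7 FPKM without it. Xrcc1, the scaffold of single-strand break repair, lay within 10.1 to 11.1 FPKM in all 6 libraries. The differences of 0.40, -0.11 and 0.04 did not pass. At the other end, Mdc1 had the lowest mean over the 6 libraries and stayed at 0.174 to 1.12 FPKM. Atr, Mdc1, Bard1, Palb2, Lig4 and Ogg1 did not pass the filter and were not tested, with no library above 3.34 FPKM.

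Promoters are shown for the 3 members that passed with higher values without α-amanitin in both amanitin comparisons (Rad1, Rad52 and Msh6) and for Chek1, which passed in the opposite direction in two-cell embryos. Each is the window of 250 bases before the start site in RefSeq on GRCm38.p6, the assembly known as mm10, taken at the RefSeq start nearest to the 5′ end of the gene in the deposited table, which is 407 bases away for Chek1 and at most 12 bases for the others. Capitals mark matches on either strand to the GC box letters GGGCGG, the CCAAT box letters CCAAT and the E2F-type letters TTTNNCGC, where neighbouring matches may share bases. The windows lie at chr15:10485768-10486017 on the plus strand for Rad1, chr6:119902448-119902697 on the plus strand for Rad52, chr17:87974800-87975049 on the plus strand for Msh6 and chr9:36726659-36726908 on the minus strand for Chek1.
Rad1: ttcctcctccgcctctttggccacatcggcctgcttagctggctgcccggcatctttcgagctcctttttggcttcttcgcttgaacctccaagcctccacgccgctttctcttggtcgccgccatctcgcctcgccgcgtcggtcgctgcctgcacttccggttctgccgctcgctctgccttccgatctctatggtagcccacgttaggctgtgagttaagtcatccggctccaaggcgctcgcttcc
Rad52: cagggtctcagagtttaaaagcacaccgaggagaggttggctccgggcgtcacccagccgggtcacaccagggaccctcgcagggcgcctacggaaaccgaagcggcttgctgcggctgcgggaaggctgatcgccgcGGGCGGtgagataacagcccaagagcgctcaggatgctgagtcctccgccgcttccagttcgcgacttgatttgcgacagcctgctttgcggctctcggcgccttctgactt
Msh6: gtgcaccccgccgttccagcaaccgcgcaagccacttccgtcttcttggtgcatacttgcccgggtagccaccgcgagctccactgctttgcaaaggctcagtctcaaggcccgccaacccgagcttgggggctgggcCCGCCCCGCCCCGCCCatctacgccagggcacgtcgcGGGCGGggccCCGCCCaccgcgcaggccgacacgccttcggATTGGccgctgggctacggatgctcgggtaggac
Chek1: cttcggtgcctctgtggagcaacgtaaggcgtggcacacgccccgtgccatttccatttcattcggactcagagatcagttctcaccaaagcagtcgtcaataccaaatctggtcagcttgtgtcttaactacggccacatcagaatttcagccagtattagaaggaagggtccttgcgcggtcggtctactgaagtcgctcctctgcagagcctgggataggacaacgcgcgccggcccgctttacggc
Msh6 held 5 GC boxes and 1 CCAAT box, Rad52 held 1 GC box, and the windows of Rad1 and Chek1 held none of these letters. Over the 32 members with a window in the RefSeq table, 21 held a GC box, 13 a CCAAT box and 5 the E2F-type letters. Of 20976 promoters of the same length, 39.1%, 35.4% and 4.9% did.

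In two-cell NT embryos, 15 of 34 members tested were higher without α-amanitin and 1, Chek1, was lower. The 15 were Chek2, Rad1, Mre11a, Nbn, Rnf8, Trp53bp1, Bard1, Rad52, Rad18, Xrcc6, Xrcc1, Ung, Apex1, Msh6 and Fancd2, and thus came from all 10 role groups. They are 44.1% of the members tested, beside 38.9% of all 17196 genes tested, and the single fall is 2.94%, beside 8.51% of all genes. The median difference was 0.78 for the members and 0.67 for all genes. The share of reads on the added spike-in RNA was 6.54% to 11.3% with α-amanitin and 2.38% to 6.26% without it, and scaling to the spike-ins moved the median of all genes from 0.67 to 1.49. Scaled to the spike-ins, 29 of 34 members were higher without α-amanitin, beside 71.4% of all genes, and 0 were lower, beside 1.63% of all genes. Under median-of-ratios scaling, 7 members were higher and 3 lower (Chek1, Rad50 and Rnf168), beside 21.9% and 14.2% of all genes. The 7 were Chek2, Rad1, Rnf8, Trp53bp1, Ung, Apex1 and Msh6, so the calls of Mre11a, Nbn, Bard1, Rad52, Rad18, Xrcc6, Xrcc1 and Fancd2 were lost under that scaling, with an adjusted p from 0.0519 for Fancd2 to 0.401 for Xrcc6.

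The 2 sets of libraries differed in how many members passed. NT against Am gave 3 members higher without α-amanitin (Nbn, Rad18 and Msh6) and 1 lower (Chek1) of 32 tested, beside 12.7% and 4.18% of all genes. R against RAm gave 24 higher and 2 lower (Chek1 and Palb2) of 33 tested, beside 60.5% and 16.4% of all genes. The difference between the sets was tested as an interaction. It was larger in the R and RAm set for 11 of 34 members, beside 36.0% of all genes, and smaller for 1, Chek1, beside 8.46% of all genes. The call of Rad18 in the NT and Am set was lost without NT3. Without that library, 19 members were higher and 1 was lower in the pooled comparison, beside 38.3% and 8.0% of all genes. In the NT and Am set without it, Rad1, Nbn, Apex1 and Msh6 were higher and Chek1 lower of 30 tested, beside 15.6% and 5.81% of all genes.

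**Figure D2:**
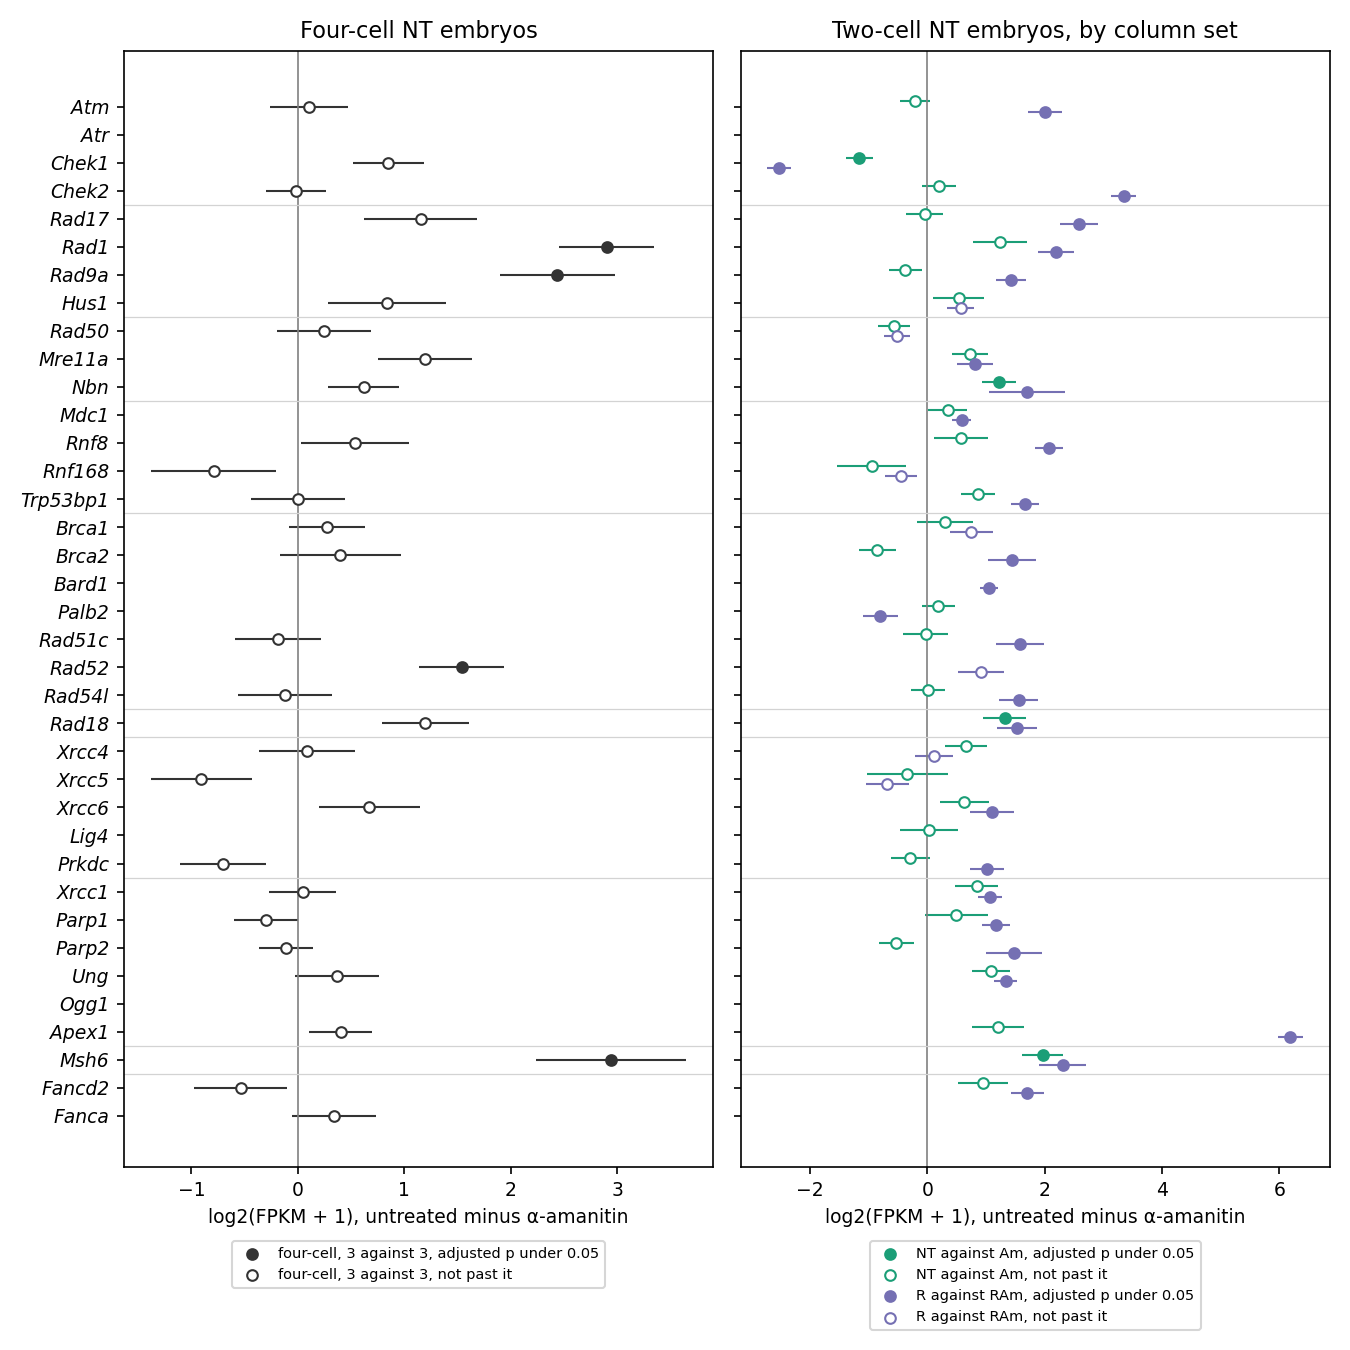
Differences on the log2(FPKM + 1) scale, untreated minus α-amanitin, with SE bars, for the 37 members in role order (grey lines separate the roles). Left, four-cell NT embryos. Right, two-cell NT embryos in the NT and Am set (green) and the R and RAm set (purple). Filled points passed an adjusted p of 0.05, and members with no point were not tested. Chek1 lies right of zero on the left panel and left of zero in both sets on the right panel.

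Chek1 was the one member that passed in the pooled two-cell comparison with higher values under α-amanitin. In two-cell embryos it was at 21.5, 25.2 and 26.3 FPKM in the Am libraries and 67.8, 85.5 and 82.9 FPKM in the RAm libraries, but at 11.9, 8.61 and 10.7 FPKM in the NT libraries and 13.5, 13.2 and 11.7 FPKM in the R libraries. Every α-amanitin library lay above every untreated library, and every RAm library lay above every Am library. The mean was 2.34 times higher in Am than in NT and 6.14 times higher in RAm than in R. The log2 difference, untreated minus α-amanitin, was -1.84 ± 0.42 (SE, adjusted p = 0.00423) pooled, -1.16 ± 0.24 (adjusted p = 0.0182) for NT against Am and -2.52 ± 0.20 (adjusted p = 3.36e-05) for R against RAm. Relative to the spike-ins it was -0.49 and did not pass (adjusted p = 0.363). The four-cell difference was positive, 0.85, with groups that did not overlap in the opposite order. The 2 tables were normalized separately, so the difference between the stages was not tested. Chek1 was the member with the highest mean FPKM in the two-cell α-amanitin libraries, 51.5 ± 30.5 (SD, n = 6), where the spread is mostly that between the sets.

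Chek2, whose kinase acts downstream of ATM, was among the members whose response differed between the sets. It was at 16.7, 16.3 and 20.7 FPKM in Am and 27.6, 22.5 and 14.2 FPKM in NT, which overlap through NT3, the library at 14.2 FPKM, and at 2.86, 3.18 and 2.41 FPKM in RAm against 34.8, 42.1 and 36.4 FPKM in R, which do not. The difference was 0.20 ± 0.29 (SE, adjusted p = 0.655) in the first set and 3.35 ± 0.22 (adjusted p = 1.76e-05) in the second, and the interaction was 3.14 ± 0.36 (adjusted p = 3.83e-05). Without NT3, the first set gave 0.46 (adjusted p = 0.194) with groups that did not overlap. Atm and Rad17 had the same form. Atm was at 11.2 to 14.3 FPKM in Am, 8.77 to 13.5 in NT, 1.36 to 3.09 in RAm and 10.8 to 13.6 in R, and Rad17 was at 10.2 to 16.7, 8.35 to 16.2, 0.959 to 2.90 and 13.7 to 18.9 FPKM. For both genes the RAm libraries were the low ones and the other 3 kinds of library overlapped, although without NT3 the NT values of Atm lay below the Am values. Their interactions were 2.22 (adjusted p = 0.000569) and 2.64 (adjusted p = 0.000693). Rad9a, Rnf8, Brca2, Rad51c, Rad54l, Prkdc, Parp2 and Apex1 also had a positive interaction past the threshold, and that of Chek1 was negative, -1.37 ± 0.29 (SE, adjusted p = 0.00267). Of the exon bases of Rad54l, 15.4% are shared with Lrrc41, and of those of Rad9a 9.53% with Ppp1ca, both on the other strand.

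Apex1 gave the largest difference among the members. It was listed at 0 in all 3 RAm libraries, at 30.1, 15.2 and 21.3 FPKM in Am, at 83.1, 59.4 and 26.1 FPKM in NT and at 68.2, 77.0 and 71.2 FPKM in R. With 3 reads per RAm library as the floor, the R mean was at least 283-fold higher. The NT and Am difference was 1.20 ± 0.44 (SE) and did not pass (adjusted p = 0.0957), and without NT3 it was 1.67 (adjusted p = 0.0139). Of the Apex1 exon bases, 61.7% are shared with exons of Pip4p1 on the other strand, and reads there cannot be assigned to one gene if strand was not used. Pip4p1 itself was at 0 to 0.378 FPKM in RAm, 5.34 to 7.58 in Am, 8.51 to 22.1 in NT and 18.6 to 23.6 in R, so in the two-cell libraries both genes were lowest in RAm. In the four-cell table, which names it Tmem55b, it was at 0.420 to 2.55 FPKM with and 3.53 to 9.58 FPKM without α-amanitin and did not overlap, whereas Apex1 did.

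Msh6 was higher without α-amanitin in both sets and in the four-cell embryos. It was at 3.91, 2.29 and 3.87 FPKM in Am, 3.19, 0.586 and 2.80 in RAm, 19.0, 20.5 and 9.98 in NT and 15.97, 13.4 and 11.6 in R. No untreated library overlapped a treated one, and the differences of 1.97 ± 0.35 (SE, adjusted p = 0.0125) and 2.31 ± 0.40 (adjusted p = 0.00125) in the sets gave an interaction of 0.34 (adjusted p = 0.640). Rad1 was at 0.717, 1.88 and 1.20 FPKM in Am, 0.973, 0.520 and 1.48 in RAm, 6.49, 6.13 and 1.66 in NT and 10.3, 6.07 and 8.05 in R. Only NT3 fell among the treated values. The pooled difference was 1.72 ± 0.34 (SE, adjusted p = 0.00201), and within the NT and Am set it was 1.24 (adjusted p = 0.101), or 1.72 (adjusted p = 0.0170) without NT3. In the R and RAm set it was 2.20 (adjusted p = 0.000383). Rad52, the third gene called in both amanitin comparisons, stayed low, with a lowest, median and highest value of 0.0337, 0.421 and 1.56 FPKM with and 0.836, 1.45 and 2.42 FPKM without α-amanitin. Its ranges overlapped, its pooled adjusted p was 0.0371, and it was not tested in the NT and Am set and did not pass in the R and RAm set (adjusted p = 0.0627). These 3 shared genes are 75% of the four-cell calls and 20% of the two-cell calls with higher values without α-amanitin, beside 57.1% and 9.32% for the 624 such genes among all genes.

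**Figure D3:**
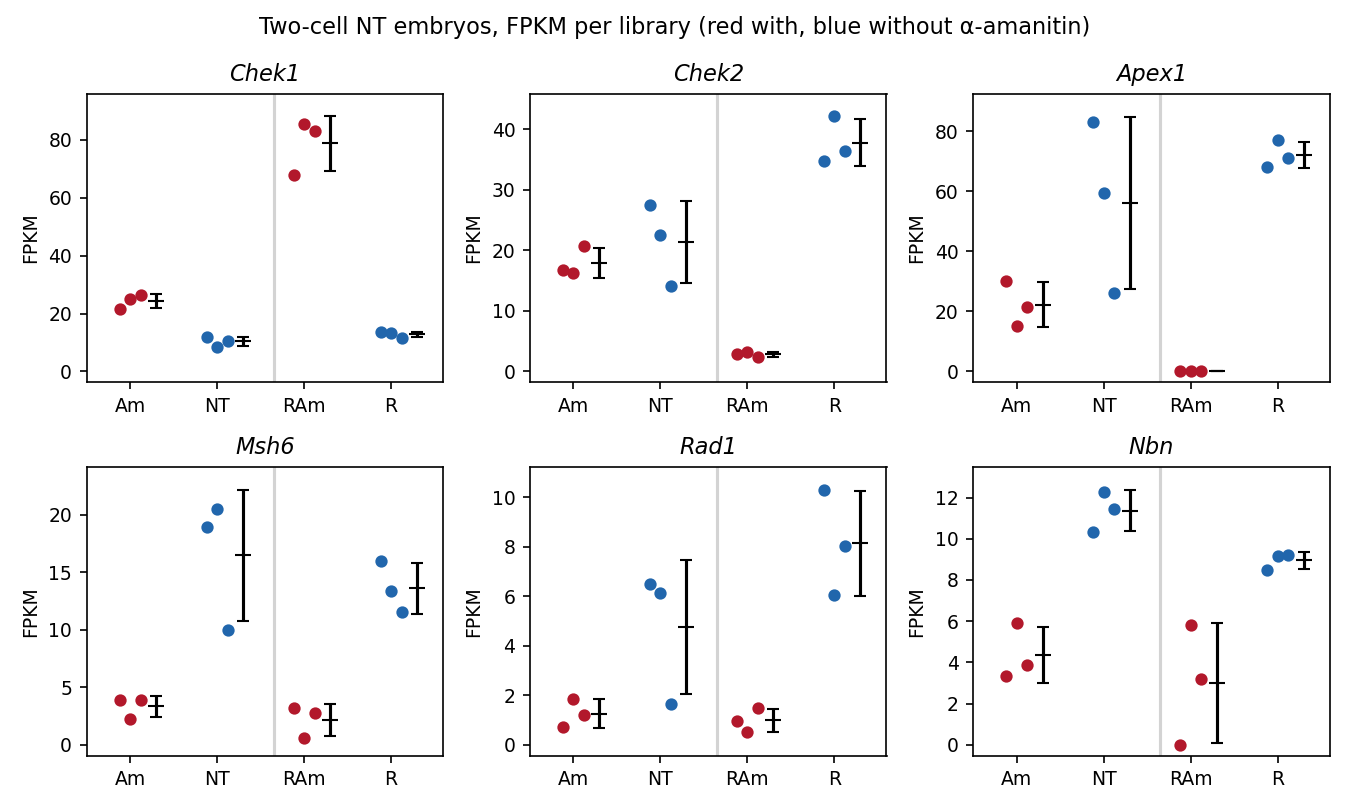
FPKM of 6 members in the 12 two-cell libraries, 3 per column set, with α-amanitin in red (Am, RAm) and without in blue (NT, R), and the mean and SD beside the points. Chek1 is highest in RAm, Apex1 is at 0 in RAm, and Msh6 and Nbn are higher without α-amanitin in both sets.

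Nbn, the MRN subunit that recruits ATM, was at 3.35, 5.93 and 3.87 FPKM in Am, 0.0, 5.81 and 3.22 in RAm, 10.3, 12.3 and 11.5 in NT and 8.49, 9.17 and 9.21 in R. The groups did not overlap, and the pooled difference was 1.46 ± 0.42 (SE, adjusted p = 0.0133), with 1.22 (adjusted p = 0.0271) and 1.70 (adjusted p = 0.0440) in the sets. Its partner Mre11a had a lowest, median and highest value of 0.314, 0.634 and 1.47 FPKM with and 1.043, 2.07 and 2.54 FPKM without α-amanitin (adjusted p = 0.0210), and it passed in the R and RAm set (adjusted p = 0.0411) but not in the NT and Am set (0.131). The third subunit, Rad50, did not follow them: it was at 9.69 to 16.5 FPKM with and 6.40 to 11.96 FPKM without α-amanitin, a difference of -0.54 ± 0.28 (SE) that did not pass. At the break site, the scaffold gene Trp53bp1 was at 0.328, 0.8291 and 1.71 FPKM with and 2.59, 3.67 and 4.48 FPKM without α-amanitin, with no overlap (1.26 ± 0.24, adjusted p = 0.00179), and 15% of its exon bases are shared with Tubgcp4 on the other strand. Rnf8, a ubiquitin ligase that marks chromatin at breaks, had 0.344, 1.57 and 3.26 FPKM with and 1.82, 5.65 and 8.66 FPKM without it (adjusted p = 0.0125), and 13.2% of its exon bases are shared with Gm28043 on the same strand. Trp53bp1 and Rnf8 passed in the R and RAm set (adjusted p = 0.000382 and 0.000151) but not in the NT and Am set (0.0803 and 0.422). For Rnf8 the NT and Am difference of 0.57 became 1.07 without NT3, with an adjusted p of 0.0557 and groups that did not overlap. The partner ligase Rnf168 had 4.64 to 21.8 and 2.57 to 10.2 FPKM and did not pass.

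Of the recombination genes, Bard1, the obligate partner of BRCA1, had a lowest, median and highest value of 0.0759, 0.243 and 0.638 FPKM with and 0.163, 1.57 and 2.53 FPKM without α-amanitin (adjusted p = 0.0150), and it passed in the R and RAm set (adjusted p = 0.000581) and was not tested in the NT and Am set. Bard1 passed the filter on low values through the untreated libraries alone. With no filter its pooled adjusted p was 0.0353. Brca2, a central mediator of homologous recombination, was far more abundant, at 9.68 to 69.0 FPKM with and 21.2 to 63.2 FPKM without α-amanitin, and its pooled difference of 0.30 did not pass. Its sets went in opposite directions, -0.86 (adjusted p = 0.0999) for NT against Am and 1.45 (adjusted p = 0.0134) for R against RAm, with an interaction of 2.30 (adjusted p = 0.00533). Rad18 had 0.528, 0.903 and 2.48 FPKM with and 2.07, 5.09 and 6.09 FPKM without α-amanitin and passed in the pooled comparison (1.42 ± 0.29, adjusted p = 0.00255) and in both sets. In end joining, the Ku70 gene Xrcc6 was the one member past the threshold in the pooled comparison without scaling, at 0.544, 1.45 and 2.35 FPKM with and 1.99, 3.24 and 6.29 FPKM without α-amanitin (adjusted p = 0.0323), while its Ku80 partner Xrcc5 had a difference of -0.51 that did not. Xrcc6 passed in the R and RAm set (adjusted p = 0.0258) but not in the NT and Am set (0.319), and Prkdc, which overlapped in the pooled comparison, also passed in the R and RAm set (1.02, adjusted p = 0.0136). Scaled to the spike-ins, Prkdc, Xrcc4, Lig4 and Xrcc6 passed. The unscaled pooled call of Xrcc6 was lost without RAm1, RAm3, NT1, R3 or r1, with an adjusted p of up to 0.0750 without NT1. That of Rad52 was lost without Am3, RAm1, RAm3, NT1, r1 or r2, with up to 0.0847 without RAm1.

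In base excision repair, the uracil glycosylase gene Ung was at 0.0, 0.401 and 0.970 FPKM (lowest, median and highest) with and 1.54, 2.03 and 3.43 FPKM without α-amanitin, with no overlap (1.21 ± 0.25, adjusted p = 0.00239). Ung passed the filter on low values through the untreated libraries alone, and with no filter its adjusted p was 0.00609. Xrcc1 had 0.0290, 0.274 and 1.26 FPKM with and 1.07, 1.70 and 2.23 FPKM without α-amanitin (0.96 ± 0.24, adjusted p = 0.00686). Fancd2, the ubiquitinated core of the Fanconi anaemia response to crosslinks, had 0.657, 0.915 and 2.45 FPKM with and 1.66, 4.69 and 6.34 FPKM without α-amanitin (1.33 ± 0.30, adjusted p = 0.00441). All 3 genes passed in the R and RAm set, with an adjusted p of 0.000455 for Ung, 0.00172 for Xrcc1 and 0.000946 for Fancd2, but not in the NT and Am set, with 0.0545, 0.148 and 0.164. Ogg1 had the lowest mean and stayed between 0.0726 and 1.35 FPKM, and Atr, Ogg1 and Fanca did not pass the filter. In all, the groups of 6 did not overlap for 5 of 34 members, 14.7%, beside 19.2% of all genes. Of marker lists, the oocyte and early embryo genes summed to 6958 to 8151 FPKM in Am, 1692 to 3610 in RAm, 8502 to 12380 in NT and 7486 to 9154 in R. The 12 myoblast genes summed to 2262 to 2495, 1172 to 1745, 946.5 to 4446 and 149 to 499 FPKM. Of these, Myod1, Myf5, Tagln and Cdh15 were at 0 in all RAm libraries, Myf5 in all Am libraries and Myod1 in all R libraries. The 6 cumulus cell genes summed to at most 18.1 FPKM in Am, 10.9 in RAm, 3.01 in NT and 5.54 in R. The part of these shifts in the members' differences was not tested.

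In the replication experiment, none of the 31 members tested passed between DR and D, beside 0.0% of all 14570 genes. At an unadjusted p under 0.05 there was 1 member, Chek2, or 3.23%, beside 6.16% of all genes (897 genes). Chek2 was at 28.7, 37.1 and 27.9 FPKM in D and at 60.3, 45.4 and 48.1 FPKM in DR. The DR libraries were all higher, by 0.70 ± 0.23 (SE) on the log2 scale, with an adjusted p of 0.788. Apex1 was the most abundant member, at 54.4, 52.1 and 63.4 FPKM in D and 75.4, 78.1 and 71.1 FPKM in DR. Parp1, the main poly(ADP-ribose) polymerase at strand breaks, was at 17.1, 11.7 and 15.2 FPKM in D and 22.9, 22.1 and 17.9 in DR, and Fancd2 at 1.24, 2.30 and 2.51 FPKM in D and 3.33, 4.70 and 2.90 in DR. For these 4 genes the groups did not overlap, all with the higher values in DR and an adjusted p of 0.788. They are 12.9% of the members tested, beside 12.2% of all genes. Pip4p1, which shares exon bases with Apex1 and is named Tmem55b here, did not overlap either. It was at 17.4, 17.1 and 21.4 FPKM in D and 26.4, 26.2 and 21.6 FPKM in DR.

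The member with the largest difference, Trp53bp1, was at 2.13, 2.87 and 0.534 FPKM in D and 4.99, 4.10 and 2.42 FPKM in DR, and the groups overlapped (0.83 ± 0.42 SE, adjusted p = 0.788). Chek1, which separated the groups in both amanitin comparisons, did not do so here, at 7.26, 5.51 and 16.5 FPKM in D and 6.26, 6.60 and 9.53 in DR. Mdc1 had the lowest mean over the 6 libraries, at 0.301 to 1.09 FPKM, and was not tested, like Atr, Bard1, Palb2, Lig4 and Fanca, none of which exceeded 2.37 FPKM in any library. Of the 31 members, 27 had a positive difference, 87.1% beside 51.5% of all genes, and their median was 0.15 beside 0.02 for all genes. Relative to the spike-ins the median was -1.24 for the members and -1.41 for all genes, with 0 members past the threshold. The scaling moved both medians alike. The spike-in factors ranged from 0.0937 to 5.60 between the 3 D libraries alone. The oocyte and early embryo markers summed to 4594 to 5739 FPKM in D and 3387 to 4040 in DR and the myoblast markers to 444 to 547 and 243 to 360, the cumulus cell markers reached at most 1.43, and their part in these values was not tested.

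**Figure D4:**
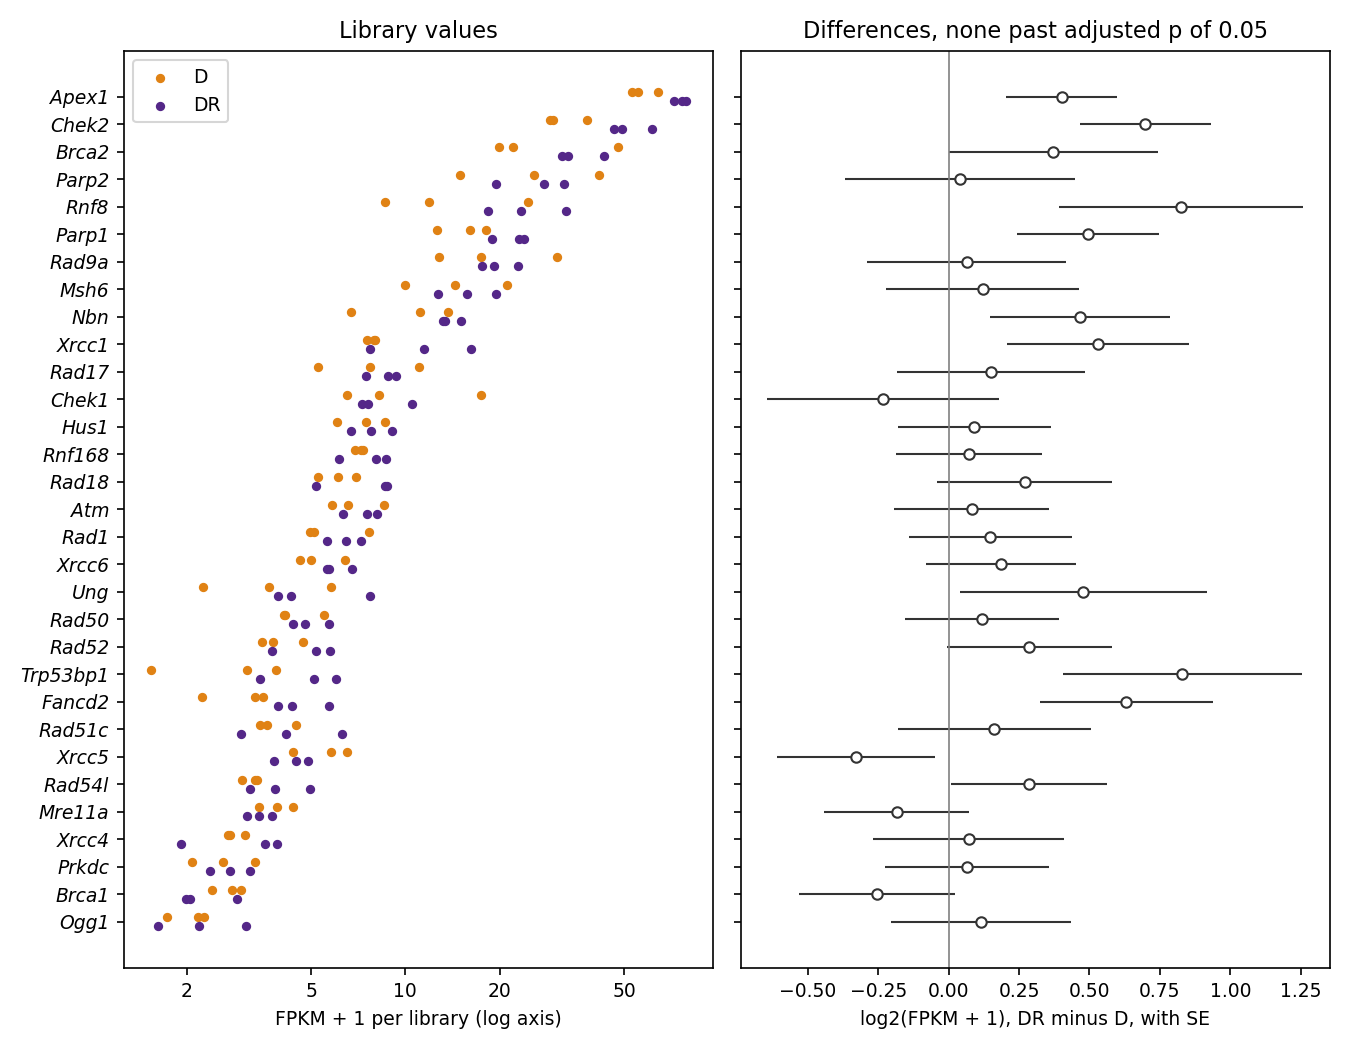
Left, FPKM + 1 per library on a log axis for the 31 members tested in the replication experiment, D in orange and DR in purple, ordered by their DR mean. Right, the difference DR minus D on the log2(FPKM + 1) scale with its SE. The differences lie between -0.33 for Xrcc5 and 0.83 for Trp53bp1 and none passed.

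Across the 2 amanitin comparisons, which share no library, 30 members were tested in both. By sign alone, whether or not the gene passed, 19 of them (63.3%) had a positive difference in both and 2 (6.67%) a negative one in both, beside 54.6% and 7.59% of the 9325 genes tested in both, and 9 had opposite signs. Of the 30, the 3 given above passed in both. Of the 9, Chek1 alone had separate groups in both comparisons. Side by side, and with no test since the tables were normalized separately, Chek2 was at 38.6 to 41.7 FPKM in untreated four-cell embryos, 14.2 to 42.1 in untreated two-cell embryos and 27.9 to 60.3 in the replication experiment. Xrcc1 was at 10.8 to 11.1, 1.07 to 2.23 and 6.52 to 15.2 FPKM, and Parp2 at 46.8 to 64.2, 9.63 to 20.4 and 13.9 to 40.5 FPKM.

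The rest of the pathway was described by 93 further genes, from replication stress signalling and recombination to nucleotide excision and lesion bypass. In four-cell embryos 72 of them were tested, 11 were higher without α-amanitin and 0 lower, beside the 11.1% and 1.13% of all genes given above, with a median of 0.70. The 2 largest rises were Ercc5, the 3′ nuclease of nucleotide excision repair, with 0.0550, 0.0 and 0.0 FPKM with and 6.14, 1.96 and 5.20 FPKM without α-amanitin (2.32 ± 0.43 SE, adjusted p = 0.0144), and the bypass polymerase gene Polk, with 0.523, 0.0 and 0.113 against 5.85, 2.26 and 7.66 FPKM (2.28 ± 0.47 SE, adjusted p = 0.0197). Neither gene reached an FPKM of 1 in any α-amanitin library, so both passed the filter on low values through the untreated libraries alone. Of these further genes, 0 passed without S15, S17 or S7, 2 without S18, 6 without S8 and 13 without S16. In two-cell embryos 32 were higher and 3 lower of 77 tested, beside 38.9% and 8.51% of all genes, with a median of 0.66, and in the replication experiment 0 of 79 passed. Scaled to the spike-ins, 62 two-cell genes of the list were higher and 0 lower, beside 71.4% and 1.63% of all genes, and under median-of-ratios scaling 16 were higher and 8 lower, beside 21.9% and 14.2%. The largest two-cell rises were Ercc4, the 5′ nuclease of the same pathway, at 0.0157 to 1.54 FPKM with and 7.05 to 33.6 without α-amanitin (3.41 ± 0.40 SE, adjusted p = 8.16e-05), and Rpa2, a subunit of the single-strand binding complex, at 2.06 to 37.2 and 18.4 to 99.8 FPKM (2.69 ± 0.76 SE, adjusted p = 0.0124). The ranges of Rpa2 overlapped. The largest falls were the helicase gene Wrn, at 2.03 to 11.8 FPKM with and 0.979 to 2.62 without α-amanitin (-1.39 ± 0.36 SE, adjusted p = 0.00814), and the polymerase zeta gene Rev3l, at 5.44 to 18.6 and 2.99 to 5.82 FPKM (-1.26 ± 0.32 SE, adjusted p = 0.00804). Relative to the spike-ins neither fall passed, with -0.39 for Wrn (adjusted p = 0.278) and -0.03 for Rev3l (0.952). Ercc4 passed in both sets, with differences of 2.68 and 4.13, while Rpa2 (0.39), Wrn (-0.59) and Rev3l (-0.96) did not pass in the NT and Am set. Without NT3 the difference of Rpa2 in that set was 1.03, it passed (adjusted p = 0.0171) and the groups did not overlap. With NT3, 3 of 66 genes tested in the set were higher and 0 lower, beside 12.7% and 4.18% of all genes, and in the R and RAm set 43 of 69 were higher and 5 lower, beside 60.5% and 16.4%.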

How the data were processed

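Per the labels and the methods of the study, reads were filtered with Trimmomatic, trimmed with Trim Galore and cutadapt, mapped to mm10 with STAR, counted with featureCounts and expressed as FPKM by the authors. Tool versions are not given in the sources used here. The deposited FPKM are relative to the reads counted on the rows of each table and are not scaled to the spike-in RNA, which the four-cell table does not list. The four-cell values were whole multiples of 1 read, while those of the other 2 tables also held fractions of reads, so their read numbers are approximate. In the replication table, 4 columns of libraries that match no sample used here were left out. The oryx experiment was not used here, since its identifiers carry no gene symbols.

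Values were put on the scale log2(FPKM + 1), and limma 3.58.1 (R 4.3.3), with its trended prior variance, compared the groups over every gene that reached an FPKM of 1 in 3 or more libraries, with p-values adjusted over all genes tested within each table, and the code was tested on simulated data. Fitted on the 6 four-cell, 12 two-cell or 6 replication libraries alone, the tests treat each pool of embryos as a replicate, so p-values measure the spread between pools. The pooled two-cell fit has no term for the column set, so its spread also includes the difference between the 2 sets. The members and lists were chosen with earlier results of these data known. Members named with library values were those past the threshold in a comparison, the highest and lowest by mean FPKM, and those with non-overlapping groups and a difference of means of at least 2-fold. Other members given with values, such as Atm, Rad17, Rad50, Brca2 and Rnf168, and values in comparisons that the rule did not reach, were chosen after they were seen. Of the further pathway genes, the 2 largest rises and 2 largest falls past the threshold were named. Gene identities were checked against GENCODE M21, in which all 37 identifiers were found. Alternatives were another pseudocount, other filters, other scalings, no variance trend, limma-voom on the reads recovered from the four-cell values, each library left out, a replicate block and, chosen after seeing the data, the 2 column sets and the interaction of set and α-amanitin.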

Additional observations from a re-analysis of the deposited data

Results flagged for a closer look

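In the two-cell libraries, 68 groups of 6 values (34 members, with and without α-amanitin) were examined with Dixon's test for a single outlying library, which chance flags in about 1 of 20 groups, and 5 were marked. Among untreated libraries, NT3 lay below the others for Rad1 (1.66 FPKM), Rnf8 (1.82 FPKM) and Apex1 (26.1 FPKM). Among α-amanitin libraries, RAm1 lay below the others for Nbn (0.0 FPKM) and RAm2 for Msh6 (0.586 FPKM).

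The α-amanitin difference of 12 of the 34 members tested differed between the column sets by the interaction test. It was larger in the R and RAm set for 11 members, 32.4%, beside 36.0% of all genes. For 1 member, 2.94%, it was smaller, beside 8.46% of all genes. The difference in the R and RAm set minus that in the NT and Am set, on the log2 scale, was 2.22 for Atm, 3.14 for Chek2, 2.64 for Rad17, 1.80 for Rad9a, 1.51 for Rnf8, 2.30 for Brca2, 1.61 for Rad51c, 1.56 for Rad54l, 1.30 for Prkdc, 2.01 for Parp2 and 4.99 for Apex1. For Chek1 it was -1.37, a stronger excess under α-amanitin in RAm. The names of the sets do not say which is the early and which the late transfer.

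Chek1 was also marked because its two-cell difference of -1.84 is opposite to its four-cell difference of 0.85, with every library on one side in each experiment. That difference between the stages was not tested, since the tables were normalized separately.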

How the results depend on the processing

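In the four-cell comparison the 4 members that passed became 1 (Rad1) with a pseudocount of 0.1 and 1 (Rad1) with no filter on low FPKM, beside 6.81% and 1.23% of all genes higher in those fits against 11.1%, and ranged from 0 to 4 on leaving out single libraries. With limma-voom on recovered reads 4 members were higher, beside 11.2% of all genes. The median of the members was 0.10 under median-of-ratios scaling against 0.34. The 11 further pathway genes became 0 with no filter, and 0 to 13 on leaving out single libraries. In the two-cell comparison the 16 members became 10 under median-of-ratios scaling, 29 under spike-in scaling, 4 in the NT and Am set, 5 in that set without NT3 and 26 in the R and RAm set. Of all genes, 38.9% were higher and 8.51% lower in the main fit, 21.9% and 14.2% under median-of-ratios scaling, and 71.4% and 1.63% under spike-in scaling. In the NT and Am set the shares were 12.7% and 4.18%, without NT3 15.6% and 5.81%, and in the R and RAm set 60.5% and 16.4%. The median of the members, 0.78, became 1.19 with a pseudocount of 0.1, 0.27 under median-of-ratios scaling, 1.70 under spike-in scaling, 0.33 in the NT and Am set, 0.42 in that set without NT3 and 1.34 in the R and RAm set. The median of all genes, 0.67, became 0.23 under median-of-ratios scaling and 1.49 under spike-in scaling. It was 0.26 in the NT and Am set, 0.28 in that set without NT3 and 1.31 in the R and RAm set. The 35 further pathway genes became 62 (none lower) under spike-in scaling, 3 in the NT and Am set and 5 in that set without NT3. In the replication experiment no alternative gave a member past the threshold, and the median of 0.15 became -1.24 under spike-in scaling. No member past the threshold changed its direction under any alternative run, and the cause of the changed counts was not tested. The two-cell call of Msh6 held under all 23 alternatives. With a replicate block, 14 two-cell members passed, 13 higher and 1 lower, beside 35.0% and 7.82% of all genes, and the calls of Mre11a (adjusted p = 0.0526) and Xrcc6 (0.0663) were lost. Libraries with the same number deviated together at r = 0.015 to 0.065, so the numbers do not pair the samples. No paired analysis was run for the other 2 experiments because their columns share fewer than 2 numbers. Neighbouring S numbers of the four-cell columns were not taken as pairs, since the sources used here do not say that they are. Transfer stage as a factor was not run, since the column names do not give it. The column set was run as a factor among the alternatives, and its counts are not listed here. Low-level members rest on few reads, and the precision of the replication experiment is limited by 3 libraries per group.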
